A study of Mus musculus with 6 samples.

Results

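Macroautophagy is the pathway by which cells enclose cytoplasm, worn organelles and damaged endosomes in a double membrane and hand them to the lysosome for breakdown. The lysosome is also where the kinase complex mTORC1 reads the supply of amino acids, and mTORC1 in turn restrains both the start of autophagy and the transcription factors that drive lysosomal genes. Proximal tubule cells, which take up filtered protein by endocytosis and degrade it in lysosomes, are known to rely on both systems. The transcripts described here are 44 genes of autophagy and of lysosomal nutrient sensing, in proximal tubules of mice with and without Clcn5, the gene of ClC-5, a chloride/proton exchanger of endosomes whose loss in humans causes Dent disease.

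The genes were chosen by name, with earlier results of these data known. Each was represented by its probe set with the highest mean log2 signal over all 6 arrays, among probe sets annotated with only 1 gene symbol. Of the 44 genes, 43 had such a probe set, out of 18193 genes on the array that could be named in this way. Optn, the gene of the cargo receptor optineurin, had none and is not analysed here. All 43 had a probe set that reached the filter on dim probe sets, a mean signal of 41.9 (a kept probe set, in what follows), and were tested among 11620 genes.

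The tubules came from Clcn5 knockout mice and from wild type mice. The kidney was perfused under halothane anesthesia, and 80 to 100 tubule pieces of 2 mm each were dissected per kidney in cold salt solution. Each group had 3 Affymetrix Mouse430_2 arrays, each carrying RNA pooled over several mice, with 3 to 4 mice per pool by the labels and 7 mice per pool by the records stored with the arrays. Strain, age, sex and the deleted part of Clcn5 are not given in the sources used here. Arrays 1 to 3 of each group are recorded as biological replicates, and the p-values below therefore measure the spread between pools.

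The arrays were washed on 2 fluidics stations: knockout arrays 1 and 2 and wild type arrays 1 and 3 on the first, and knockout array 3 and wild type array 2 on the second.

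Signals are in arbitrary units, scaled by the authors to the same trimmed mean of 150 on every array, and a log2 change is knockout over wild type. With so few arrays, the standard error (SE) of a log2 change had a median of 0.12 over all tested genes and 0.09 over the 43 members. Clcn5 itself had signals of 352, 322 and 269 in knockout and 1013, 709 and 1029 in wild type (log2 change −1.53, SE 0.14, limma adjusted p = 9.32e-05). That brightest probe set is of the _x_at kind, which may also bind transcripts of similar sequence. The 3 other kept probe sets of Clcn5 had log2 changes of −2.87, −2.10 and −1.50, the first with signals of 107, 111 and 127 in knockout and 821, 861 and 834 in wild type. Which part of the gene each probe set reads relative to the deletion is not known here. Markers of the whole proximal tubule had a summed signal of 38792 to 42498 in knockout and 36135 to 42253 in wild type, and none of 9 tested passed limma's threshold (3 at an unadjusted p under 0.05). Of 8 markers of its first segments 2 fell (summed signal 26170.3 to 28134 against 26907.5 to 30170.3), and of 8 markers of its last segment 1 rose (13403 to 14333 against 11808 to 12890.5). Markers of other cell types also gave signal, and some moved with the groups. Over all tested genes 3.24% rose and 3.24% fell. Of 10 leukocyte markers 3 rose, with a summed signal of 2992 to 3065 in knockout and 2072 to 2099.8 in wild type. Of 5 podocyte markers 2 rose (summed signal 1271 to 1542 against 1023 to 1069), and of 5 thick ascending limb markers 2 rose (9977 to 10719 against 8031 to 8350.5). For the distal convoluted and connecting tubule 3 of 4 rose (8476 to 8980.5 against 6881 to 7919), and for intercalated cells 3 of 5 rose (2531 to 2641 against 1967 to 2051). Of 5 principal cell markers 2 fell (2063 to 2326 against 2606 to 2932), while none of 7 endothelial and none of 6 fibroblast and muscle markers passed (0 and 2 at an unadjusted p under 0.05). Markers were tested only where their mean signal reached the filter of 41.9. With no detection calls, their signal alone does not show that these cells were present. The part of these cells in the values below was not tested. In such tissue RNA, fewer cells of a type and less RNA per cell cannot be told apart.

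Of the 43 members tested with limma, a linear model that shares the estimate of spread across genes, at an adjusted p under 0.05, 1 rose and 1 fell: Mtor, which encodes the kinase of mTORC1, and Atg3, the enzyme that attaches LC3 proteins to lipid. That is 4.65% of the members, where 6.48% of all tested genes passed, 3.24% as higher and 3.24% as lower. The log2 changes of the members ran from −0.29 to 0.40, with a median of −0.02 against 0.01 over all tested genes. The median size of the change, without its sign, was 0.08 against 0.13. For 41 of the 43 members the 95% interval of the change lay within 1.5-fold in either direction, as it did for 72.6% of all genes. The 2 others were Tfeb and Flcn. The median signal of the members was 340.4, against 199 over all tested genes. An unadjusted p under 0.05 was reached by 5 members, Mtor, Atg3, Atg12, Rragd and Lamtor1, where 19.4% of all tested genes reached it.

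**Figure D1:**
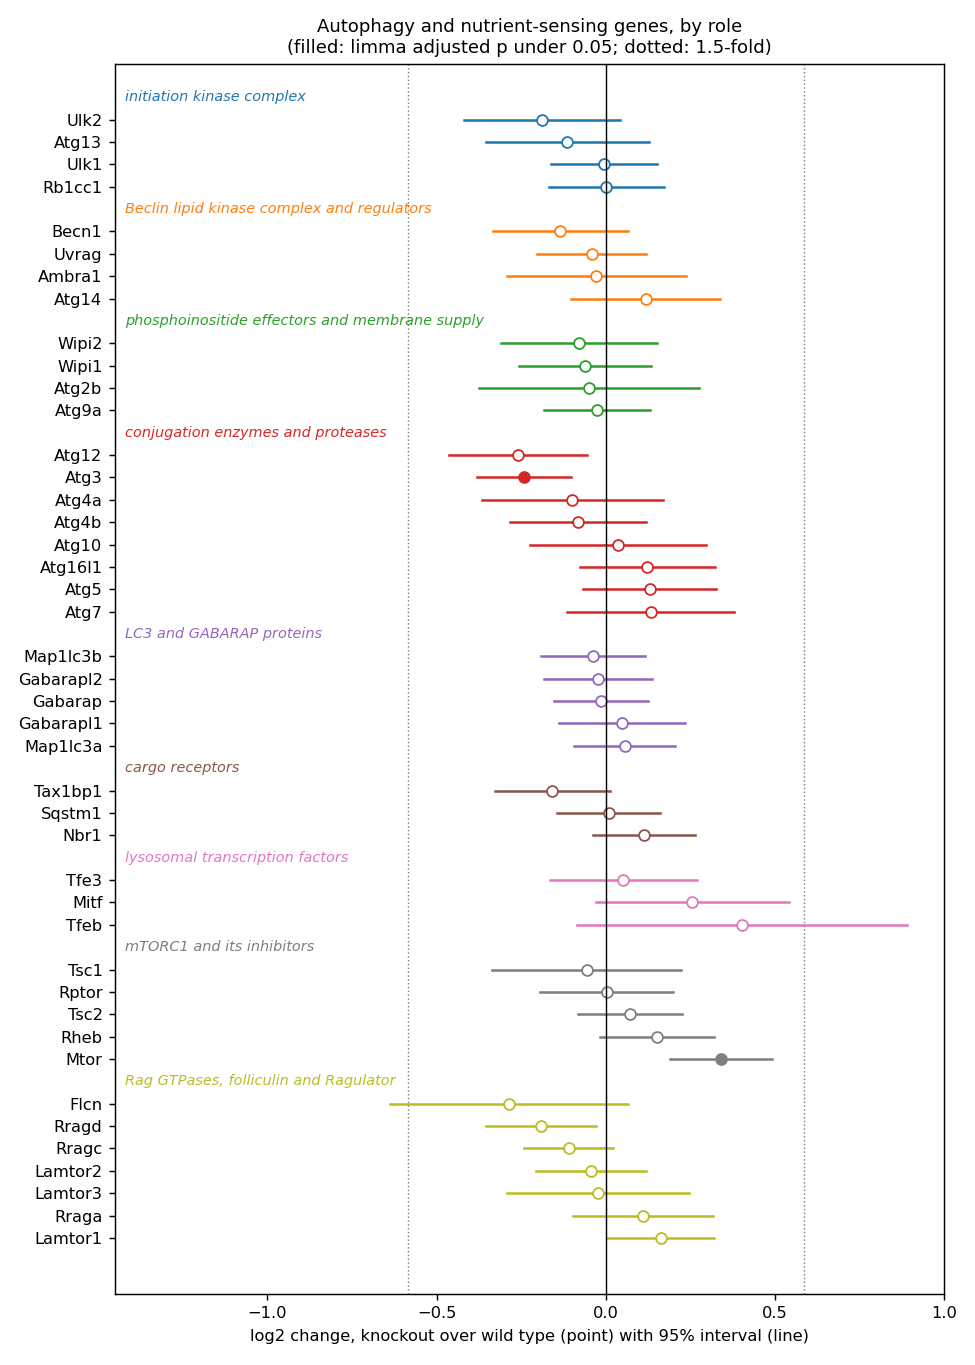
Log2 change of signal, knockout over wild type, for each of the 43 tested members on the horizontal axis, grouped by role; points are fitted changes, lines are 95% intervals, filled points passed limma's adjusted p of 0.05 and dotted lines mark 1.5-fold. Only Mtor (0.34) and Atg3 (−0.24) are filled, and only the lines of Tfeb and Flcn cross a dotted line.

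Mtor encodes the protein kinase of mTORC1 and mTORC2, which promotes growth and protein synthesis when nutrients are at hand. Its signals were 1407, 1339.9 and 1376 in knockout and 1153, 1001 and 1112 in wild type. Every knockout value lay above every wild type value, and the change was 1.26-fold upward (log2 change 0.34, SE 0.07, 95% interval 0.19 to 0.49, limma adjusted p = 0.0123). Such separation of the groups was seen in 25.2% of all tested genes and in 8 of the 43 members. The rise was not shared by the other kept probe set of the gene, 1436267_a_at, whose signals were 162, 149 and 139 in knockout and 169, 167 and 167 in wild type. There the knockout values all lay below the wild type values (log2 change −0.16, limma adjusted p = 0.489 when each probe set was tested by itself). The call of Mtor therefore rests on 1417592_at: with both probe sets averaged the log2 change was 0.09 (limma adjusted p = 0.523). The call held in each of the 6 fits that left out 1 array, where the limma adjusted p reached 0.0495. It ended without an intensity trend in the variances (0.0860) and on the first station alone (0.0806). The log2 change was 0.28 on the first station and 0.46 on the second.

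The partners of mTOR did not pass the test. Rptor, which encodes Raptor, the subunit that recruits substrates, had a log2 change of 0.00 with a 95% interval of −0.19 to 0.20. Rheb, the small GTPase that switches the kinase on, had signals of 1470.2, 1660.1 and 1373 in knockout and 1349, 1397 and 1299 in wild type. Knockout array 2 was the highest of the 6, the groups overlapped, and the log2 change was 0.15 (SE 0.08, limma adjusted p = 0.321). Tsc1 and Tsc2 encode the complex that turns Rheb off. Their log2 changes were −0.06 (−0.34 to 0.22) and 0.07 (−0.08 to 0.22), the second with groups that did not overlap, 399, 395 and 419 in knockout against 393, 371 and 390.3 in wild type.

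The conjugation enzymes attach ubiquitin-like proteins to one another and to membrane lipid, and Atg3 does the last step for the LC3 and GABARAP proteins. The signals of Atg3 were 1192, 1221 and 1258 in knockout and 1465, 1365 and 1514 in wild type. All 3 knockout arrays were below all 3 wild type arrays, by 1.18-fold (log2 change −0.24, SE 0.06, 95% interval −0.38 to −0.10, limma adjusted p = 0.0478). On the first station the log2 change was −0.30, and on the second it was −0.12. The call of Atg3 ended in 5 of the 6 fits that left out an array, all except that without wild type array 2 (adjusted p up to 0.179), and with the station as a block (0.0596), among 11 of 17 alternatives in all. Its other probe set, 1418179_at, was below the filter, with signals of 19.7, 15.1 and 15.7 in knockout and 11.2, 26.5 and 31.9 in wild type.

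Atg12, the ubiquitin-like protein that is joined to Atg5, had the next smallest p of the members. Its signals were 319.6, 328 and 276 in knockout and 392, 341 and 372 in wild type. The groups did not overlap, with the nearest values at 328 and 341, and the log2 change was −0.26 (SE 0.09, limma adjusted p = 0.144). The other kept probe set of Atg12 had a log2 change of −0.15, with overlapping groups. Atg7, the activating enzyme of both conjugation routes, gave signals of 153, 155 and 178 in knockout and 138, 153 and 152 in wild type, which just missed overlapping (log2 change 0.13, limma adjusted p = 0.588).

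The remaining conjugation genes overlapped between the groups. Atg5 had signals of 369.8, 322 and 315 in knockout and 297, 328 and 294 in wild type (log2 change 0.13, limma adjusted p = 0.486). A second probe set of Atg5, 1418236_s_at, went the other way, with 232, 251 and 201 against 252, 269 and 276 and no overlap (log2 change −0.22, limma adjusted p = 0.293), while the third was at 0.12. Atg16l1, which places the Atg12 and Atg5 conjugate on the growing membrane, had signals of 299, 257 and 278 against 241, 271 and 253 (log2 change 0.12, limma adjusted p = 0.523). Atg10, the conjugating enzyme that joins Atg12 to Atg5, had a log2 change of 0.04, and the proteases Atg4a and Atg4b, which trim LC3 proteins, had −0.10 and −0.08.

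The LC3 and GABARAP proteins coat the autophagosome and bind cargo receptors. On the probe sets that represent their 5 genes, the log2 changes lay between −0.04 and 0.06, and no 95% interval reached beyond −0.19 or 0.23. Map1lc3b, the LC3 gene most used as an autophagy marker, had signals of 1455, 1493 and 1371 in knockout and 1522, 1367 and 1548 in wild type. The groups overlapped fully, and the log2 change was −0.04 (95% interval −0.19 to 0.11, limma adjusted p = 0.829). Its 2 other bright probe sets read lower in knockout: 1415930_a_at gave 1167, 1497 and 1279 against 1519, 1606 and 1659.8, without overlap (log2 change −0.29, limma adjusted p = 0.123), and 1415928_a_at had a log2 change of −0.17 (0.337). With its probe sets averaged, the log2 change of Map1lc3b was −0.17 (limma adjusted p = 0.225). None of the 3 passed, and the value of 1415930_a_at lay outside the interval of the probe set that represents the gene. Map1lc3a, Gabarap, Gabarapl1 and Gabarapl2 had log2 changes of 0.06, −0.01, 0.05 and −0.02. Map1lc3a was read by a probe set of the _x_at kind and Gabarapl1 by one of the _s_at kind, which may also bind transcripts of similar sequence.

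The cargo receptors bind ubiquitin-marked cargo and the LC3 proteins. Sqstm1, which encodes p62, had signals of 3211, 3227 and 3151 in knockout and 3280.4, 2937 and 3333 in wild type. The knockout values all lay inside the wild type range, and the log2 change was 0.01 (95% interval −0.14 to 0.16, limma adjusted p = 0.965). Nbr1, a receptor related to p62, gave 1938, 2066 and 1938 in knockout and 1774, 1754 and 1974 in wild type (log2 change 0.11, limma adjusted p = 0.412). Tax1bp1, a receptor with roles in clearing bacteria and protein aggregates, gave 1363, 1201 and 1113 in knockout and 1385, 1369 and 1336 in wild type. Knockout array 1 lay among the wild type arrays and the other 2 lay below them (log2 change −0.16, limma adjusted p = 0.296). Its 3 dimmer kept probe sets had log2 changes of −0.36, 0.09 and −0.24, none past the threshold.

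**Figure D2:**
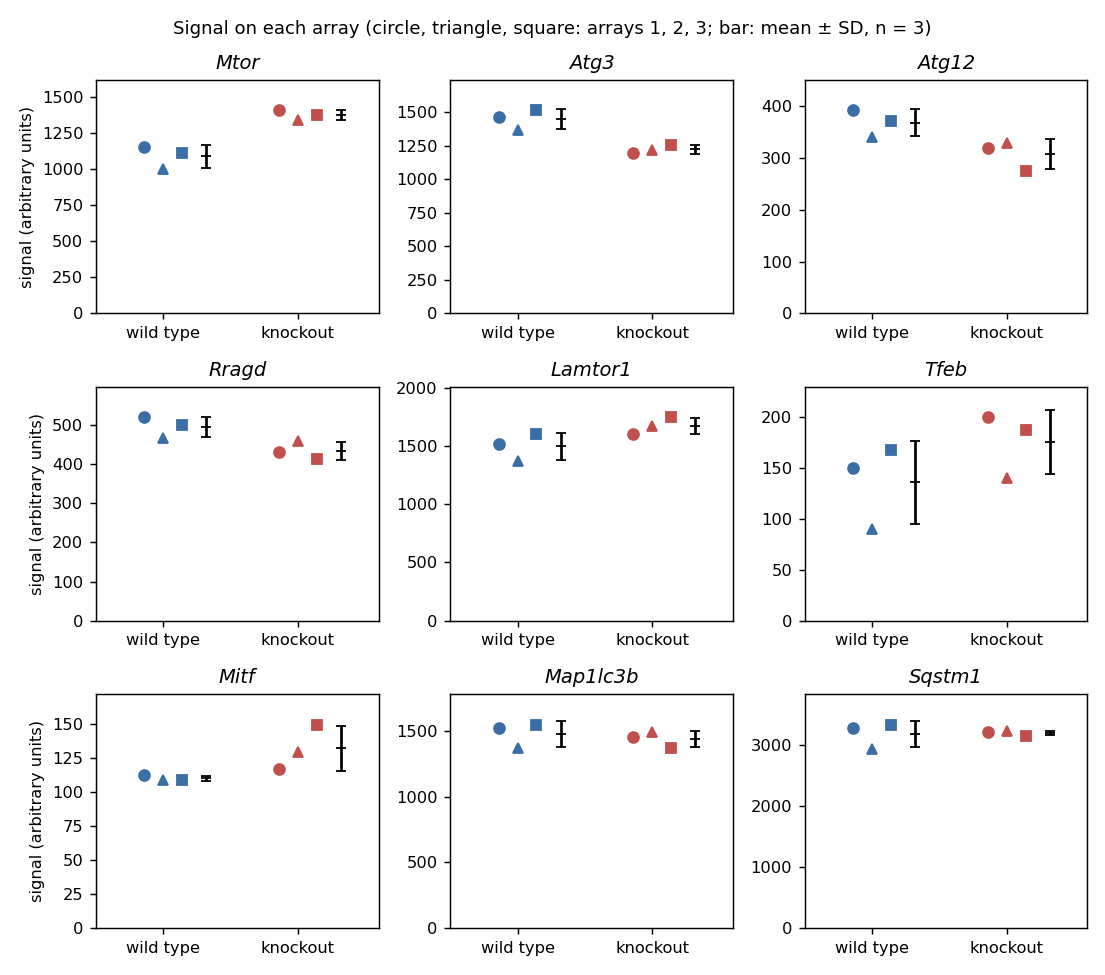
Signal in arbitrary units on each of the 3 wild type (blue) and 3 knockout (red) arrays for 9 members, each panel with its own vertical axis starting at 0; the black bars are the mean ± SD of 3 arrays. Mtor, Atg3, Atg12, Rragd and Mitf show groups that do not overlap, while Lamtor1, Tfeb, Map1lc3b and Sqstm1 overlap.

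None of the genes that start the autophagosome passed the test. The initiation complex joins the kinases Ulk1 and Ulk2 with the scaffolds Rb1cc1 and Atg13. Ulk1 had signals of 330.2, 334 and 348 in knockout and 333, 341 and 342 in wild type, a log2 change of −0.01. Ulk2 gave 220.3, 196 and 215 in knockout and 266, 243 and 213 in wild type, where wild type array 3 lay below knockout arrays 1 and 3 (log2 change −0.19, SE 0.10, limma adjusted p = 0.364). Its 2 other kept probe sets were also lower, with log2 changes of −0.29 and −0.11, the first without overlap (adjusted p = 0.18). Rb1cc1 and Atg13 had log2 changes of 0.00 and −0.11, and the other kept probe set of Atg13 was at 0.29.

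Becn1 encodes Beclin 1, the regulatory subunit of the lipid kinase that marks the forming autophagosome. Its signals were 721, 691 and 574 in knockout and 733, 759.9 and 681 in wild type. Knockout array 3 was the lowest and the other arrays overlapped (log2 change −0.14, 95% interval −0.33 to 0.06, limma adjusted p = 0.467). The probe set that represents Becn1 is of the _s_at kind, which may also bind transcripts of similar sequence. A second bright probe set of Becn1 had a log2 change of 0.01. The 3 dimmer ones had −0.31, −0.68 and −0.18, with standard errors of 0.16, 0.33 and 0.60. Atg14 and Uvrag, which direct this kinase to autophagosomes or to endosomes, had 0.12 and −0.04, and Ambra1, which ties it to Ulk1, had −0.03.

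Wipi1 and Wipi2 read the lipid that the kinase makes, Atg2b moves lipid into the growing membrane and Atg9a brings membrane vesicles. Their log2 changes were −0.06, −0.08, −0.05 and −0.03. Wipi1 was measured by 4 kept probe sets, all lower in knockout. The brightest, with signals of 273, 290.4 and 289 in knockout and 284, 329 and 278 in wild type, showed the smallest difference. It represents the gene and is of the _s_at kind, which may also bind transcripts of similar sequence. The 3 others had log2 changes of −0.39, −0.44 and −0.57. The 2 dimmest of them, 1456624_at with 55.5, 45.1 and 50.5 against 66.8, 72.6 and 65.6 and 1424917_a_at with 38.6, 46.5 and 35.5 against 50.2, 58.3 and 71.2, had groups that did not overlap, and neither passed by itself (limma adjusted p = 0.232 and 0.215).

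**Figure D3:**
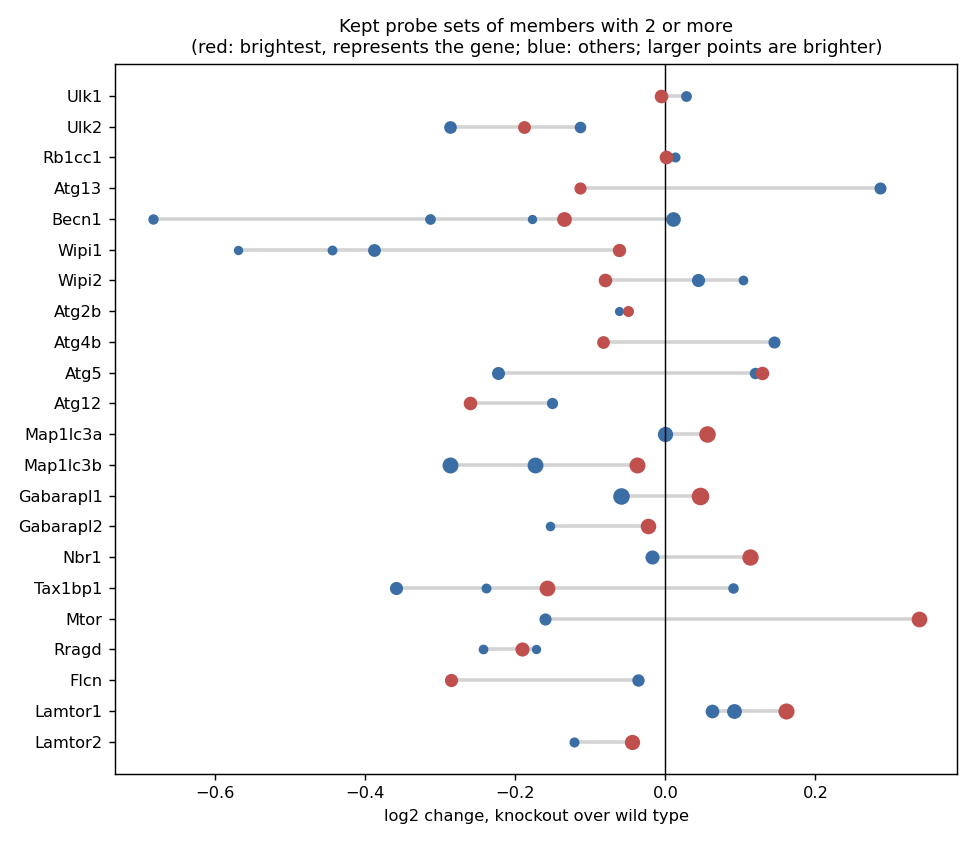
Log2 change of every kept probe set for the 22 members with 2 or more of them; red points represent the gene, blue points are its other probe sets and larger points are brighter. For 11 genes the values have both signs, and the pair of Mtor spans −0.16 to 0.34.

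Probe sets of 1 gene often disagreed on so small a scale. Of the 22 members with 2 or more kept probe sets, 11 had probe sets of both signs and 11 had all of 1 sign. When each of the 78 kept probe sets of the members was tested by itself, 1 passed, that of Mtor, where 4.76% of all kept probe sets did. Ulk2, Wipi1, Rragd and Map1lc3b were lower on each of their 3 or more kept probe sets, and Lamtor1 was higher on each of its 3, none of them past the threshold.

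Tfeb, Tfe3 and Mitf encode related transcription factors that mTORC1 keeps in the cytoplasm and that switch on lysosomal and autophagy genes. Tfeb had the largest log2 change of the members and also the largest error. Its signals were 199.99, 140.4 and 187 in knockout and 150.1, 90.3 and 168 in wild type. Wild type array 2 was far below the others, and the remaining wild type values overlapped the knockout values (log2 change 0.40, SE 0.22, 95% interval −0.09 to 0.89, limma adjusted p = 0.361). On the first station the log2 change was 0.08 and on the second, which held wild type array 2, it was 1.05. Without wild type array 2 it was 0.13.

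Mitf had signals of 117, 129 and 149 in knockout and 112, 109 and 109 in wild type. The groups did not overlap, the wild type values lay close together, and knockout array 3 was the highest (log2 change 0.26, SE 0.13, limma adjusted p = 0.319). Tfe3 had a log2 change of 0.05 (95% interval −0.17 to 0.27). The log2 change of Tfe3 was 0.14 on the first station and −0.12 on the second. None of the 3 factors passed the test.

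These factors bind DNA at an E-box, CACGTG, and are known to favour a longer palindrome around it, the CLEAR element, that recurs upstream of lysosomal genes. The RefSeq promoters of build GRCm38.p6, which run from 250 bases before to 50 after a gene's start, held an entry for 38 of the 44 members. CACGTG, which reads the same on both strands, was found in promoters of 7 of these members, 18.4%, against 8.09% of all genes with an entry. Its 8-letter extension TCACGTGA, also a palindrome and a part of the longer one, was found in 1 member against 1.12% of all genes, and the full CLEAR palindrome in none against 0.37%. The sites are shown because these letters are what the factors are known to bind; each is given 5′ to 3′ on the strand of its gene with 8 bases on either side and the E-box in capitals.
Atg3, site 1: ccttttgtCACGTGtcctggga
Atg3, site 2: agtcgagtCACGTGaggcctta
Atg5: gcgcttgcCACGTGgtcttggt
Atg7: ttggtggtCACGTGtgcagtaa
Atg14: caaaatccCACGTGactggccc
Lamtor1: cttcctatCACGTGccgcgggt
Rheb: cgcgcggtCACGTGggtgtgtt
Rragc: attccgggCACGTGatagtacc

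The first site of Atg3 lies at chr16:45158727-45158748, plus strand, 94 bases before the start, and the second, the only TCACGTGA among the members, at chr16:45158750-45158771, plus strand, 71 bases before it. The site of Atg5 lies at chr10:44268317-44268338, plus strand, 14 bases before the start, and that of Atg7 at chr6:114670956-114670977, plus strand, 132 bases before it. The site of Atg14, at chr14:47568422-47568443, minus strand, begins 1 base before the start. The site of Lamtor1 is at chr7:101905761-101905782, plus strand (68 bases before), that of Rheb at chr5:24842444-24842465, minus strand (96), and that of Rragc at chr4:123917313-123917334, plus strand (112). Of these 7 genes, 5 had a log2 change above 0 and 2 below, from −0.24 for Atg3 to 0.16 for Lamtor1, and Atg3 was the only one past the threshold. A match in these letters is a description and shows no binding.

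At the lysosomal surface the Rag GTPases, held by the Ragulator scaffold, recruit mTORC1 when amino acids are present. Rragd, the Rag gene that is itself a known target of TFEB and its relatives, had signals of 431, 459 and 413 in knockout and 519.6, 468 and 500.1 in wild type. The groups did not overlap, with knockout array 2 and wild type array 2 closest (log2 change −0.19, SE 0.07, limma adjusted p = 0.177). Its 2 other kept probe sets had log2 changes of −0.24 and −0.17. Rragc, whose product pairs with RagA or RagB, gave 729, 724 and 729.8 in knockout and 776, 766 and 816 in wild type, again without overlap (log2 change −0.11, SE 0.06, limma adjusted p = 0.351). Rraga had a log2 change of 0.11, with knockout array 3 the highest at 727.

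Lamtor1, the Ragulator subunit that anchors the complex in the membrane, had signals of 1604, 1670.1 and 1745 in knockout and 1515, 1374 and 1605 in wild type. Wild type array 3 reached the level of knockout array 1, and the log2 change was 0.16 (SE 0.07, limma adjusted p = 0.25). Its 2 other kept probe sets were at 0.09 and 0.06. Lamtor2 and Lamtor3 had log2 changes of −0.04 and −0.02. For Lamtor3 knockout array 3 stood apart, with knockout signals of 380.1, 382 and 539 and wild type signals of 442, 435 and 428.

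Flcn encodes folliculin, which acts on RagC and RagD and through them decides whether TFEB is held by mTORC1. Its signals were 320.2, 236 and 195 in knockout and 319, 266 and 316 in wild type, so that knockout array 1 stood at the level of wild type arrays 1 and 3 and the other 2 lay below all wild type arrays. The log2 change was −0.29 (SE 0.16, 95% interval −0.64 to 0.07, limma adjusted p = 0.368). Without knockout array 1 it was −0.48 (limma adjusted p = 0.0479), the only setting in which Flcn passed. The probe set is of the _x_at kind, and the other kept probe set of Flcn had a log2 change of −0.04.

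Knockout array 3 was the array most often at the edge of the range. It was the highest or the lowest of the 6 arrays for 23 of the 43 members, 53.5%, and for 45.3% of all tested genes. It had the highest median signal of the 6 arrays, 48.8 against 40.9 to 45.3. The change on the first station and that on the second had the same sign for 22 of the 43 members, 51.2%, and for 60.7% of all tested genes.

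Related genes outside the members included some that changed by more than 2-fold. The lists of related genes, here and below, were drawn up with earlier results of these data known. Their shares past the threshold are therefore a description, and no list was tested as a set. Of 34 other tested autophagy genes, 2 rose and 1 fell, 8.82% against 6.48% of all genes, and their median log2 change was 0.02. Trp53inp1, a p53-induced protein that binds LC3, gave 419.8, 431 and 411 in knockout and 323, 334 and 299 in wild type, 1.32-fold higher (log2 change 0.40, SE 0.07, limma adjusted p = 0.0075). The second kept probe set of Trp53inp1 was at 0.46 and did not pass when tested by itself (limma adjusted p = 0.121). Vmp1, a membrane protein needed to form autophagosomes, was 1.18-fold higher (1448 ± 22.9 against 1223 ± 52.5, SD, n = 3; limma adjusted p = 0.0357), but its other kept probe set had a log2 change of −0.09. Bnip3, a receptor for the removal of mitochondria and a gene induced by low oxygen, was 1.20-fold lower (1872 ± 112 against 2250.1 ± 84.3; limma adjusted p = 0.0398). The calls of Vmp1 and Bnip3 ended when 1 array was left out, for Vmp1 in each of the 6 fits and for Bnip3 in 5 of them, all except that without knockout array 2 (adjusted p up to 0.131 and 0.154). The promoter of Bnip3 held 1 E-box, 108 bases before its start.

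Among 51 other tested genes of nutrient sensing, 1 rose and 4 fell, 9.80% against 6.48% of all tested genes, with a median log2 change of −0.07. Eif4ebp1, the translation repressor 4E-BP1 that mTORC1 inactivates, had signals of 99.6, 111 and 101 in knockout and 241, 253 and 253 in wild type. This was a 2.41-fold fall (log2 change −1.27, SE 0.10, limma adjusted p = 3.82e-05), and 1417562_at fell by 1.13 on the log2 scale as well (limma adjusted p = 0.00114). The first of these is of the _x_at kind. The dimmest probe set of the gene, 1417563_at, had a log2 change of −0.32 (adjusted p = 0.492). Ddit4, the stress-induced inhibitor of mTORC1 known as REDD1, gave 582, 552 and 408 in knockout and 224, 217 and 215 in wild type, 2.32-fold higher (log2 change 1.21, SE 0.12, limma adjusted p = 0.000148). The groups were far apart for both genes, and knockout array 3 was the lowest knockout array for Ddit4.

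Sesn2, the leucine sensor that holds back mTORC1, was 1.48-fold lower, with 272, 251 and 272 in knockout and 344, 428 and 407 in wild type (log2 change −0.56, SE 0.09, limma adjusted p = 0.0043), and 1425139_at was at −0.67. Mcoln1, the lysosomal calcium channel that helps to activate TFEB, was 1.42-fold lower, with 378, 337 and 403 in knockout and 541, 529 and 514 in wild type (log2 change −0.51, SE 0.08, limma adjusted p = 0.00285), and its other kept probe set was at −0.49. The promoter of Mcoln1 held a pair of E-boxes, of which the second is part of TCACGTGA, at chr8:3500440-3500461, plus strand, and chr8:3500466-3500487, plus strand.
Mcoln1, site 1: gcgcttgtCACGTGttcagttc
Mcoln1, site 2: gccccgctCACGTGaccgcggc

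Rps6, the ribosomal protein phosphorylated downstream of mTORC1, was 1.46-fold lower, with 146, 137 and 126 in knockout and 203, 182 and 211 in wild type (log2 change −0.54, limma adjusted p = 0.0123). Ribosomal protein genes have many near-identical processed copies in the genome, so this signal may be shared with them. Leaving out wild type array 1, or 3, ended its call (limma adjusted p of at most 0.0659). Depdc5, a subunit of the GATOR1 brake on mTORC1, had a log2 change of −0.99 and did not pass (limma adjusted p = 0.366). Knockout array 3 alone was low for it, with signals of 74.9, 69.9 and 12.9 in knockout and 92.4, 69.2 and 83.3 in wild type, and it is named after its values were seen.

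Lysosomal genes known as targets of TFEB were set beside the factors. Of 28 tested with limma, none rose and 3 fell, 10.7% in all against 6.48% of all tested genes, of which 3.24% fell. At an unadjusted p under 0.05 there were 7 of the 28, of which 2 had a log2 change above 0, and 19.4% of all tested genes. Of the 28 genes, 21 lay below 0, with a median of −0.09. Galns, the gene of a sulfatase that degrades keratan sulfate, had signals of 545, 535 and 521 in knockout and 769, 769 and 748 in wild type, 1.43-fold lower without overlap (log2 change −0.51, SE 0.06, limma adjusted p = 0.00042). The others were Hexa and Gusb, of the enzymes beta-hexosaminidase and beta-glucuronidase, with log2 changes of −1.12 and −0.85. Hexa gave 169, 163 and 167 in knockout and 358, 361 and 364 in wild type, and Gusb gave 220.4, 206 and 177 in knockout against 372, 355 and 357 in wild type, without overlap in either (limma adjusted p = 1.39e-05 and 0.000322). A promoter entry was held for 23 of the genes on this list. Of these, 13, or 56.5%, contained CACGTG, against 8.09% of all genes with an entry. The list holds known targets of factors that bind this site, so a high share follows in part from how it was chosen. It is not independent evidence of enrichment. No such site was found for the 3 that fell, Galns, Hexa and Gusb, in the promoters used here. Whether each of the 3 had a promoter entry is not given here, so a missing site may be a missing entry. Of the genes that fell on the other lists, Mcoln1 and Bnip3 held such sites. None was found for Eif4ebp1, Sesn2 and Rps6, with the same limit. Of the members 19 of 43 were above 0, and over all tested genes 51.7% were.

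**Figure D4:**
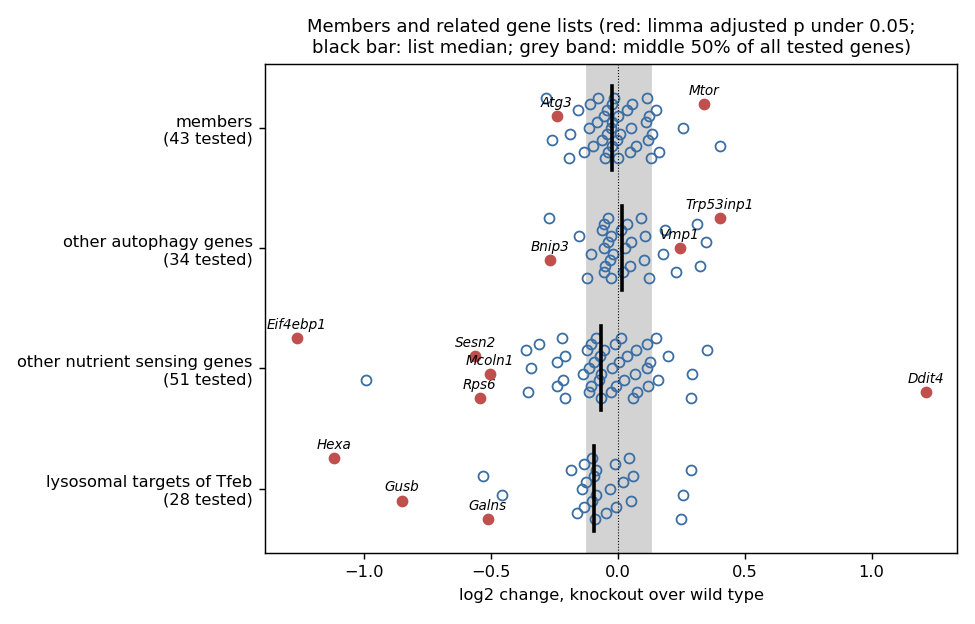
Log2 change of each tested gene for the members and 3 lists of related genes; red points passed limma's adjusted p of 0.05, black bars are list medians and the grey band holds the middle 50% of all 11620 tested genes. The members lie between −0.29 and 0.40, while Eif4ebp1, Ddit4 and Hexa of the other lists lie beyond 1 in size.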

How the data were processed

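The authors deposited linear signal intensities of 45101 probe sets. Per the submitters' processing notes they come from GCOS 1.4 and MAS5. With 2% trimmed at each end, the mean of every array was 150. Detection calls are not used here, so background could not be judged per probe set. Groups were read from the sample titles and fluidics stations from the arrays' records. Controls (64 probe sets) were left out. On the log2 scale, with no pseudocount, the 22519 probe sets whose mean reached the 50th percentile were kept. The platform annotation named 34945 probe sets with 1 gene symbol, 932 with several and 9160 with none, and the brightest kept probe set of 1 symbol stood for its gene. All 43 members matched RefSeq by gene identifier, with the same symbol.

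The groups were compared over all 11620 genes in limma 3.58.1 (R 4.3.3), with lmFit followed by eBayes and a trend of variance on intensity. Tests were two-sided on 10.4 degrees of freedom, 4 residual and 6.40 from the prior that eBayes fits across genes, and p-values were adjusted by Benjamini-Hochberg over all genes. Folds are ratios of geometric means, and means ± SD are of linear signals. The fit was also run on data simulated from its own variance model, with independent arrays. That simulation held no stations and no differing probe sets, so it does not test the fit under those conditions. Tables and plots were made in Python 3.11.15 (with pandas 2.3.3 and numpy 2.4.6) and matplotlib 3.10.9.

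Members and lists were chosen with earlier results of these data known. Described in full are members past the threshold, the 16 with the smallest p, and Tfeb, Mtor, Becn1, Map1lc3b and Sqstm1. Of the other lists, up to 8 genes past the threshold are described. Alternatives changed the transform, normalization, filter, probe set rule, variance model, array weights and blocks, and left out each array in turn.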

Additional observations from a re-analysis of the deposited data

How the results depend on the processing

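The count of members past the threshold was 2, and it was 1 when arrays were centred on their medians, with no filter, with probe sets averaged, with the station as a block, with the replicate block, and with each probe set tested by itself. It was 0 without an intensity trend, with 4 members at an unadjusted p under 0.05, and 0 on station 1 alone, with 6. Where 1 member passed in these settings it was Mtor, except with the averaged probe sets, where it was Atg3. Leaving out 1 array gave 1 to 2 members, 1 without knockout array 2 or 3 or wild type array 1 or 3, and Flcn in place of Atg3 without knockout array 1. The count of all genes was 753, with 487 without an intensity trend and 458 on station 1 alone. The other autophagy genes numbered 3, and 1 when centred, with no filter, without a trend, with the replicate block and on station 1 alone; leaving out 1 array gave 1 without each array except knockout array 2. The counts of nutrient-sensing genes and of TFEB targets stayed within 1.5 times. The median log2 change of the members, −0.02, was 0.0018 with probe sets averaged and −0.0014 on station 1 alone, and it ran from −0.0231 to 0.0026 over the fits that left out 1 array, with 0.0021 without knockout array 2, 0.0026 without wild type array 3 and −0.0034 without knockout array 3. Sqstm1, at 0.01, was at −0.0091 under quantile normalization and −0.0388 on station 1 alone, and ran from −0.0491, without wild type array 2, to 0.0422, without wild type array 3. The named members gave 306 values in other settings, of which 288 kept direction and side of the threshold. Most of these belong to members that had not passed in the main fit and so had no call to lose. Mtor kept its call in 14 settings and lost it in 3, and Atg3 kept its call in 6 and lost it in 11. The cause of these differences was not tested. Some of these settings also used fewer arrays or other probe sets, and their part in the differences was not separated.

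The main fit did not pair the arrays by the replicate numbers of the titles. Arrays with the same number had deviations from their group means that correlated, across genes, at 0.02, 0.03 and −0.03. With so few arrays, these values cannot decide whether the pools were prepared in pairs. With the replicate block Mtor passed (adjusted p = 0.0126) and Atg3 did not (0.0625). Fits on station 1 alone and of each probe set by itself were chosen after seeing the data. Without detection calls, the depth of dim probe sets cannot be judged.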
